A study of Homo sapiens with 8 samples.

Results

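The genes described here encode the nuclear-encoded subunits of the mitochondrial respiratory chain and ATP synthase. They were chosen by gene symbol alone, with a pattern that takes the NDUFA, NDUFB, NDUFC, NDUFS and NDUFV genes, SDHA to SDHD, CYC1, the UQCR genes, the COX4 to COX8 genes and the older ATP5 symbols. Pseudogene symbols and genes at 0 in all libraries were left out. The pattern matched 178 symbols, of which 91 were pseudogenes and 1, the muscle isoform COX6A2, was at 0 throughout. The remaining 86 members stand among 24432 genes with a symbol that were not at 0 in all 8 libraries. By complex they are 36 genes of complex I (7 core and 29 accessory subunits), 4 of complex II, 10 of complex III, 17 of complex IV, 15 of ATP synthase and 4 with an ATP5 symbol that are relatives of subunit genes or named after the enzyme without being subunits of it.

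MOLM13, a human line established from acute myeloid leukemia, was sequenced as messenger RNA in 4 groups of 2 libraries. Rescue cells are labelled with an IGF2BP2 rescue genotype, mutant rescue cells with a rescue by a mutant of the gene, knockdown cells with IGF2BP2 knockdown by a short hairpin RNA, and control cells as WT. IGF2BP2 encodes a protein that binds messenger RNAs that carry the N6-methyladenosine mark, and the title of the series puts it on a signaling axis in leukemia stem cells. All groups come from a single line and were handled under a protocol of viral infection with polybrene and, if needed, puromycin selection. The sources used here do not give the mutation or the hairpin. They do not say whether control and knockdown cells held an empty vector, or rescue cells of either kind the hairpin. Nor do they say that replicates were separate cultures, and the spread behind each p-value may therefore be a technical one.

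The respiratory chain passes electrons from NADH, through complex I, and from succinate, through complex II, to ubiquinone, then through complex III and cytochrome c to complex IV, which reduces oxygen. Complexes I, III and IV pump protons, and ATP synthase uses the gradient to make ATP. Most subunits are made in the cytosol from nuclear genes and imported, while a small set is encoded by mitochondrial DNA. Acute myeloid leukemia stem cells are known for their reliance on this pathway.

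Promoters of these genes are known for binding sites of NRF1, of ETS family factors such as GABP and of YY1. Of the 80 members that passed the filter on low values, 64 matched a RefSeq promoter window (GRCh38.p14, 250 bases before to 50 after the start). The NRF1 core GCGCATGCG, read on both strands, was in 10 of these (15.6%), against 2.10% of 27305 windows of the same length. An ETS core, CCGGAAG, was in 19 (29.7%), against 10.7% of windows, and a YY1 core, AAGATGGC, was in 11 (17.2%), against 3.03%. The 27305 windows were taken from RefSeq symbols without the filter on low values, so they include genes that were not tested here. Shares over the tested genes alone were not computed. Of the 21 members with a window that passed the test in any comparison below, 5 held the NRF1 core, 6 the ETS core and 3 the YY1 core. The stretches below are shown because each holds a match in the window before the gene's RefSeq start, and together they cover complexes I to IV and ATP synthase. The last base of the match lies from 37 bases (NDUFS6) to 210 bases (COX6A1) before that start. They run 5′ to 3′ on the strand of the gene, and capitals mark the matches.
SDHD: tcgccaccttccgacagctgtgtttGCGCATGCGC
NDUFB4: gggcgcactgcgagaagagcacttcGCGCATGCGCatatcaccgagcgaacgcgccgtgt
NDUFS6: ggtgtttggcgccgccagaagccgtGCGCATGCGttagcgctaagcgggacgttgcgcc
COX6A1: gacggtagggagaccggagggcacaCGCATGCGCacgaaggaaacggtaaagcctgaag
ATP5I: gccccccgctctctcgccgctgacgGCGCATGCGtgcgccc
ATP5H: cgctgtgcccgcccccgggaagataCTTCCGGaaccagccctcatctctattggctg
UQCR11: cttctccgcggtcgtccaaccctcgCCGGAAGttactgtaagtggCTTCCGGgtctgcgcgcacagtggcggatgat
In the order shown they lie at chr11:112086738-112086772 (plus strand), chr3:120596152-120596211 (plus), chr5:1801336-1801394 (plus), chr12:120437869-120437927 (plus), chr4:674339-674379 (minus), chr17:75047039-75047095 (minus) and chr19:1605528-1605604 (minus). The first 5 hold the NRF1 core on either strand, and in SDHD and NDUFB4 the run reads the same on both strands, so that it holds overlapping matches on each. ATP5H holds a single ETS core on the opposite strand, and UQCR11 holds one on each strand.

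IGF2BP2 itself had log2 values of 11.36 and 11.13 in rescue, 11.03 and 10.68 in mutant rescue, 10.24 and 10.25 in knockdown, and 10.94 and 10.89 in control. Knockdown was below every other group in both libraries, and limma gave adjusted p = 0.0147 for the difference from control and adjusted p = 0.00324 for that of rescue from knockdown. All values here are on the log2 scale of the authors' deposited table, normalized across the 8 libraries, and read depth is unknown. Myeloid genes such as CD33, MPO, SPI1, CSF1R and LYZ were well above the filter in every library, the T cell gene CD3E and the B cell gene MS4A1 were listed at 0, and the progenitor markers KIT and CD34 were near the filter. Of the markers of other cell types, only the keratin gene KRT18 passed the filter. Myeloid markers differed between groups in more than 1 direction. In knockdown against control LYZ, PTPRC and CSF1R rose by 1.92, 0.96 and 1.27 and HOXA9 fell by 0.70, and MPO had a change of -0.19 that did not pass (adjusted p = 0.00195, 0.00414, 0.00194, 0.00389 and 0.233 in limma). LYZ, the lysozyme gene, had 16.66 and 16.88 in rescue, 17.86 and 18.51 in mutant rescue, 17.13 and 17.07 in knockdown, and 14.99 and 15.36 in control. In rescue against mutant rescue LYZ fell by 1.42 and MPO rose by 0.42 (adjusted p = 0.00808 and 0.0317). The part of these markers in the results below was not tested.

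A gene was tested if its linear value came to 1 ppm or more of the summed linear values in 2 or more libraries, which held for 13030 genes and 80 members. The 6 members below the filter were the tissue isoforms COX4I2, COX7A1, COX7B2 and COX8C, and 2 relatives of ATP synthase subunits, ATP5L2 and ATP5J2LP, the last annotated as a processed pseudogene. COX4I2, the isoform known from lung, was listed between -1.74 and -1.73 in all libraries, and COX8C, known from testis, between 0.29 and 0.34. Just inside the filter lay COX6B2, the testis partner of COX6B1, with values of 3.79 to 4.02, and UQCRHL, a near-identical copy of UQCRH whose reads could be split between the copies, with 4.65 to 4.94, and just outside it ATP5L2, with 2.87 to 2.99. Members that passed had means over the 8 libraries between 3.94 and 14.95. Their summed linear values made up 2.09% and 1.95% of the total in rescue, 2.15% and 2.30% in mutant rescue, 2.12% and 2.10% in knockdown, and 2.29% and 2.54% in control. The sources used here do not say whether values were divided by transcript length, so levels are not compared between genes. The libraries are from bulk RNA, in which fewer cells of a type and less RNA per cell cannot be told apart.

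Replicates differed over the whole set of members before any groups were compared. In control, replicate 2 lay above replicate 1 in 78 of the 80 members, by a median of 0.25 log2, and in mutant rescue it did so in 65, by a median of 0.24. In knockdown the median difference was -0.02 and in rescue -0.10. Over all genes tested these medians were -0.0050 in rescue, 0.014 in mutant rescue, 0.0053 in knockdown and 0.015 in control. The cytosolic ribosomal protein genes, listed for comparison because their transcripts are also short and abundant, moved alike, with medians of -0.15 in rescue, 0.33 in mutant rescue, -0.02 in knockdown and 0.28 in control. The median transcript length, from GENCODE v29, was 716 bases for members, 687 for ribosomal protein genes and 1792 for all tested genes that have a length. The shifts in control and mutant rescue are of about the size of the group medians below, which run from -0.29 to 0.31. All tested genes under 1000 bases, 2983 in number, had replicate medians of -0.04 in rescue, 0.05 in mutant rescue, -0.0039 in knockdown and 0.08 in control. The part of these shifts and of length in the results was not tested beyond the values without each library and those of short genes given beside each comparison.

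**Figure D1:**
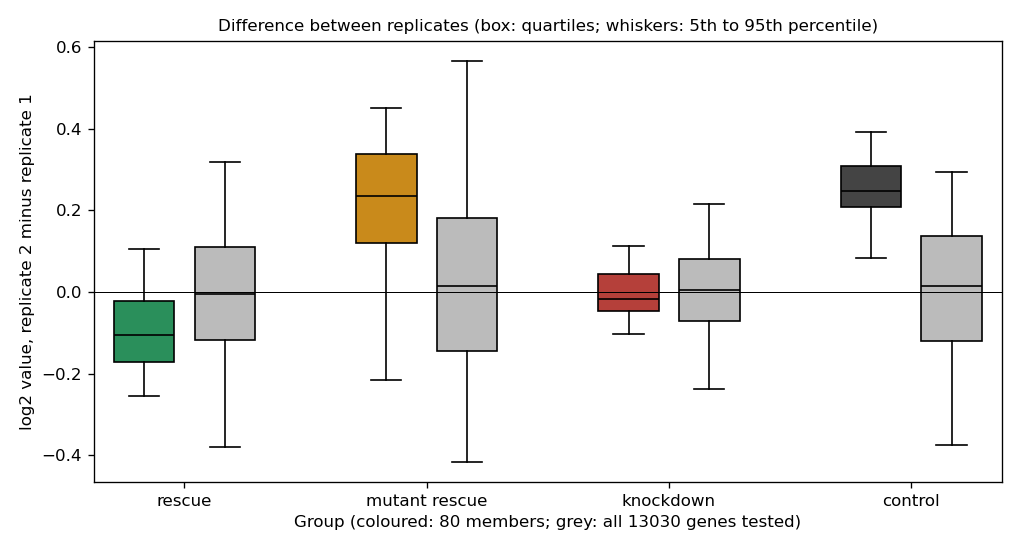
Log2 value of replicate 2 minus that of replicate 1 in each group, as boxes (quartiles, whiskers to the outer percentiles that leave out 5% at each end) over the 80 members (coloured) and all 13030 genes tested (grey). The boxes of the members lie above 0 in mutant rescue and control, with medians of 0.24 and 0.25, while the medians of all genes lie near 0 in all groups.

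**Figure D2:**
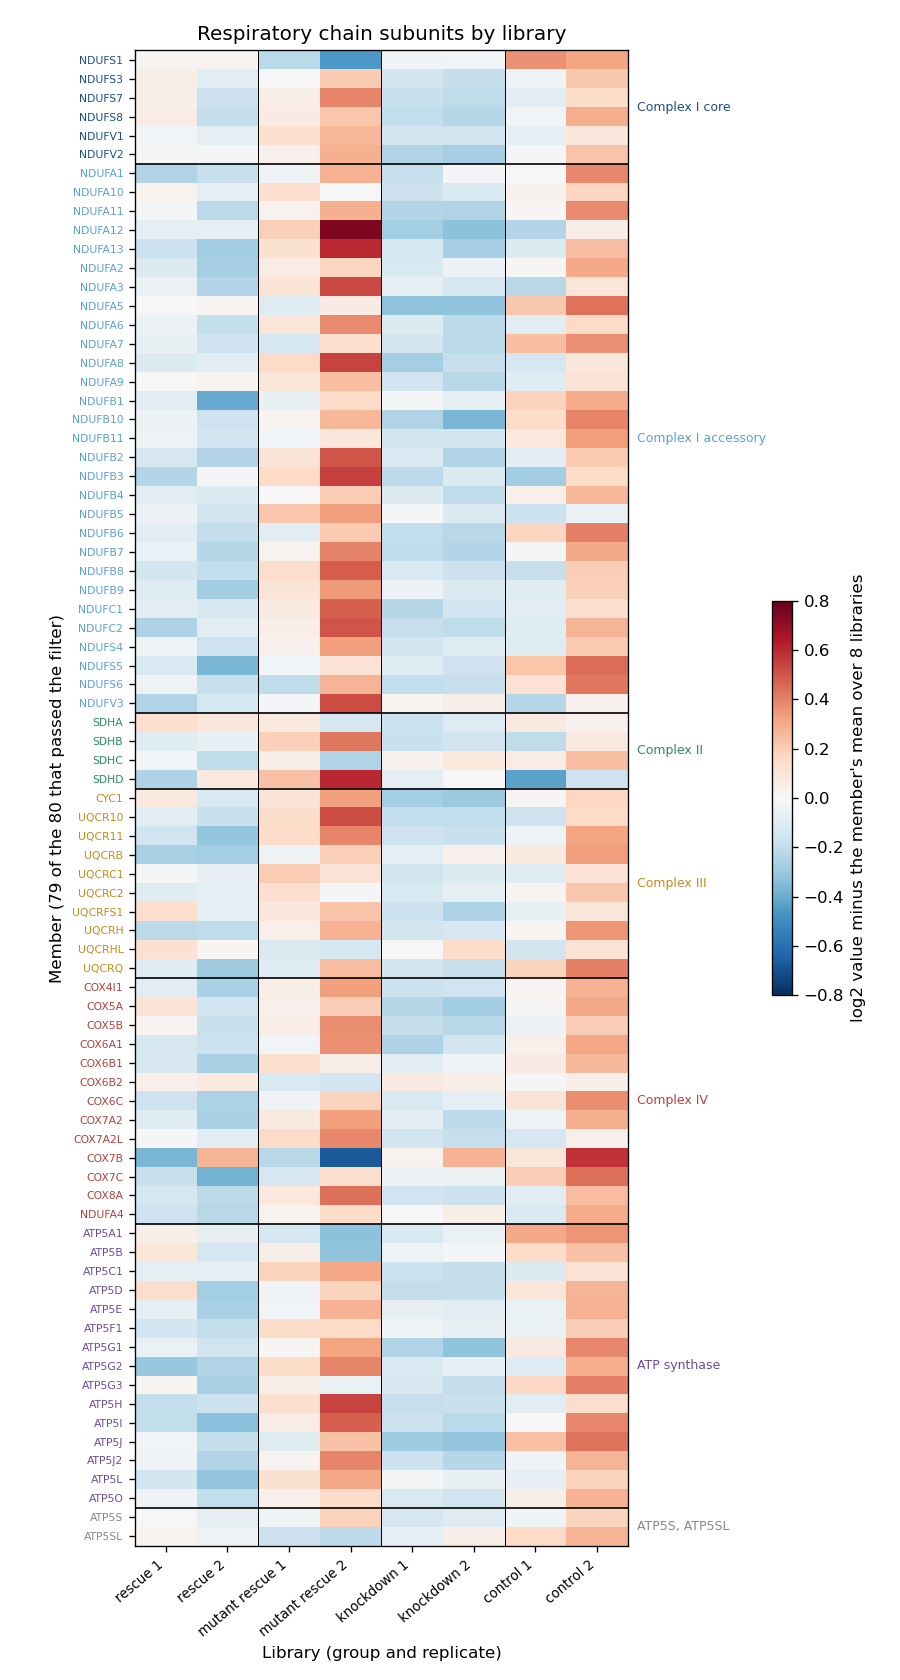
Log2 value of each of 79 of the 80 members minus its own mean over the 8 libraries (colour, red above and blue below the mean), with libraries as columns and members grouped by complex as rows. Most members are above their mean in mutant rescue replicate 2 and control replicate 2 and below it in the knockdown libraries, while NDUFS1 and COX7B are lowest in mutant rescue replicate 2.

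The first comparison, knockdown against control, asks how the subunits stand after depletion of IGF2BP2. No member rose and 9 of 80 fell, where 7.44% of all genes tested fell and 12.8% passed in either direction (adjusted p under 0.05 in limma). The 9 are the complex I accessory genes NDUFA5, NDUFB10, NDUFA7, NDUFB6 and NDUFS5, and the ATP synthase genes ATP5J, ATP5A1, ATP5G1 and ATP5G3. Log2 changes were below 0 in 75 members, with a median of -0.24 against 0.01 over all genes and -0.04 over genes under 1000 bases. This median stayed below 0 when libraries were centred on their medians (-0.25) or quantile normalized (-0.14). At an unadjusted p under 0.05, 30 members were lower, where 16.0% of all genes were. In 63 members both knockdown libraries lay below both control libraries, which held for 31.4% of all genes.

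NDUFA5, an accessory subunit in the arm of complex I that extends into the matrix, lies on chromosome 7 (123536997 to 123558255, minus strand, GRCh38). Its log2 values were 11.65 and 11.68 in rescue, 11.56 and 11.72 in mutant rescue, 11.33 and 11.33 in knockdown, and 11.87 and 12.09 in control. Knockdown was the lowest group and control the highest, with no overlap, and both rescue arms lay between. On the deposited log2 values the gene fell 1.56-fold in knockdown, a log2 change of -0.64 (SE 0.10, adjusted p = 0.00762 in limma). The authors' deposited log2 change was larger, at -0.82. The change without any 1 library lay between -0.75 and -0.53. The call was lost without knockdown replicate 1 or 2 (adjusted p = 0.0925 and 0.0923).

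NDUFB10, an accessory subunit of the membrane arm, had log2 values of 10.82 and 10.70 in knockdown and 11.21 and 11.46 in control, and fell by 0.57 (SE 0.12, adjusted p = 0.0214). The accessory genes NDUFA7, NDUFB6 and NDUFS5 fell by 0.48, 0.50 and 0.47 log2 (adjusted p = 0.0313, 0.0370 and 0.0382 in limma). For all 4 genes the control libraries lay above the knockdown libraries. None of the 7 core subunits, which carry the flavin, the iron-sulfur clusters or part of the ubiquinone site, passed in limma. All 7 changes were below 0, with a median of -0.26. At an unadjusted p under 0.05 in limma, 3 were lower, where 16.0% of all genes were. The authors' deposited table also called 3 lower, where 13.4% of all genes were. The nearest to passing in limma was NDUFS1, the largest core subunit, which holds iron-sulfur clusters, at -0.37 (adjusted p = 0.0536).

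ATP5J, which encodes coupling factor 6 in the peripheral stalk of ATP synthase, had log2 values of 12.24 and 12.21 in knockdown and 12.76 and 12.96 in control. The groups were clear of each other, and the gene fell by 0.64 (SE 0.13, adjusted p = 0.0186 in limma). ATP5A1 (ATP5F1A in RefSeq), the alpha subunit of the catalytic head, had 13.32 and 13.39 in knockdown and 13.75 and 13.80 in control and fell by 0.41 (adjusted p = 0.0344). Its partner ATP5B, the catalytic beta subunit, had a change of -0.22 that did not pass (adjusted p = 0.361). The 3 genes ATP5G1, ATP5G2 and ATP5G3 encode the same mature subunit c of the rotating ring. ATP5G1 fell by 0.51 and ATP5G3 by 0.45 (adjusted p = 0.0443 and 0.0474), and ATP5G2 had a change of -0.19 (adjusted p = 0.419). Whether ATP5G2 differs from its relatives was not tested.

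No gene of complexes II, III or IV passed in limma in this comparison. At an unadjusted p under 0.05 the counts were 0, 3 and 5, all lower, where 16.0% of all genes were lower, and the authors' deposited table called 0, 4 and 6 lower, where 13.4% of all genes were. Complex II, the succinate dehydrogenase that also acts in the citric acid cycle, had changes of -0.19 for the flavoprotein SDHA, -0.10 for the iron-sulfur protein SDHB, and -0.09 and 0.26 for the membrane anchors SDHC and SDHD. Complex III had a median of -0.22 over 10 genes, with the near-identical pair UQCRH at -0.33 and UQCRHL at 0.09. Complex IV had a median of -0.28 over 13 genes. Among its isoform genes COX4I1 had -0.32, COX6A1 -0.37, COX6B1 -0.22, COX6B2 0.05, COX7A2 -0.28, COX7B -0.18 and COX8A -0.24, and NDUFA4, once assigned to complex I and now to complex IV, had -0.06.

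The number of members that passed in knockdown against control depended on single libraries. It was 0 without knockdown replicate 1 and 0 without knockdown replicate 2, where the remaining library was taken to vary like the other groups. It was lower without any 1 control or rescue library and higher without either mutant rescue library. The share of all genes called moved the same way. Calls over all genes came to 1.44% without knockdown replicate 1, 1.37% without knockdown replicate 2, 3.78% without control replicate 2 and 18.1% without either mutant rescue library, against 12.8% with all libraries. The median change was -0.37 without control replicate 1 and -0.12 without control replicate 2. By the adjusted p of the authors' deposited table, 31 members were lower in knockdown, where 13.4% of all genes were.

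**Figure D3:**
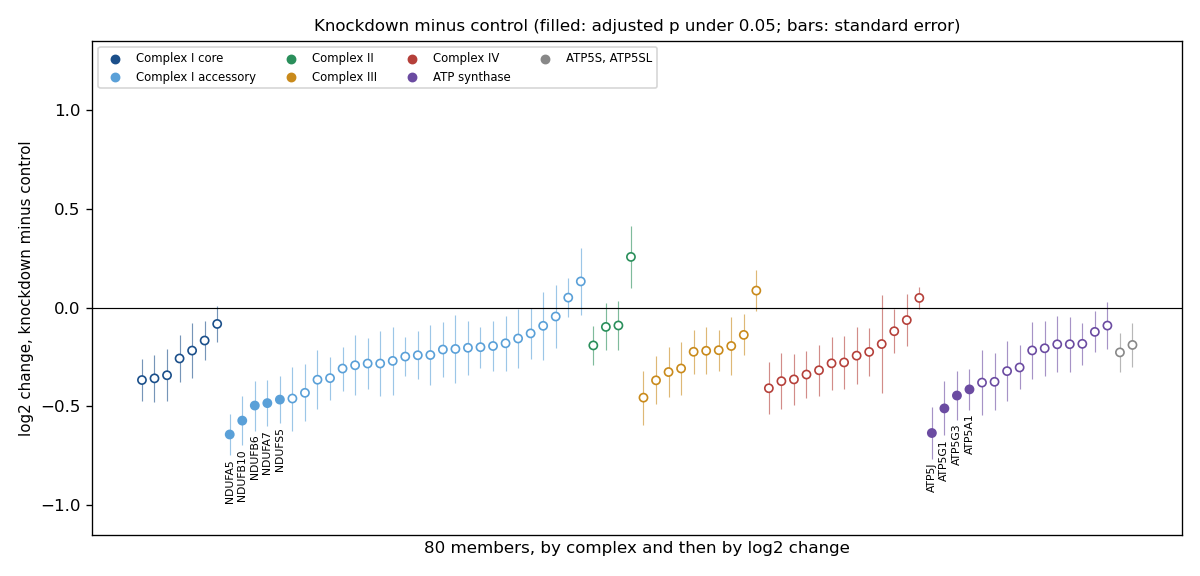
Log2 change (knockdown minus control) of each of the 80 members, ordered by complex and then by change, with the standard error as a bar and filled points for an adjusted p under 0.05 in limma. The 9 filled points, all below 0, belong to complex I accessory subunits and ATP synthase, and 5 members lie above 0.

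The second comparison, rescue against knockdown, asks which subunits differ between cells labelled as IGF2BP2 rescue and knockdown cells. No member passed the limma test, where 4.24% of all genes did. At an unadjusted p under 0.05, 2 were higher, where 11.5% of all genes were, and none lower. The median change was 0.03, which was -0.08 under quantile normalization, against 0.0045 over all genes and 0.03 over genes under 1000 bases. The smallest p belonged to NDUFA5, with the values above, both rescue libraries higher than both knockdown libraries and a change of 0.33 (SE 0.10, adjusted p = 0.121). This gene passed in a fit of only the rescue and knockdown libraries (adjusted p = 0.0250), and in the authors' deposited table it was the single member called (log2 change 0.41, adjusted p = 0.00791), where 7.04% of all genes were higher.

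SDHA had log2 values of 12.77 and 12.72 in rescue against 12.46 and 12.53 in knockdown, a change of 0.25 (adjusted p = 0.214 in limma). UQCRFS1, the Rieske iron-sulfur protein of complex III, had 12.88 and 12.67 in rescue against 12.57 and 12.50 in knockdown, a change of 0.24 (adjusted p = 0.280). In both genes the libraries were apart without passing the test. Over the 7 core subunits of complex I all changes were above 0, with a median of 0.13. Complex II had a median of 0.02, complex III 0.0014, complex IV -0.01 and ATP synthase 0.03. Rescue against knockdown shares the knockdown libraries with knockdown against control, so the values of a member in both are not independent.

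Mutant rescue against knockdown asks the same with the mutant. Here 8 members rose and none fell, where 5.58% of all genes rose and 11.3% passed in either direction. They are NDUFA12, NDUFA8 and NDUFV1 of complex I, SDHB of complex II, CYC1 of complex III, COX7A2L of complex IV, and ATP5C1 and ATP5H of ATP synthase. Changes were above 0 in 72 of 80 members, with a median of 0.31 against 0.05 over all genes. Over all genes the change moved with transcript length, with medians of 0.15 for genes under 1000 bases and -0.09 for those over 4000. This median was 0.26 with libraries centred on their medians and 0.11 with quantile normalization.

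NDUFA12, an accessory subunit of the matrix arm, lies on chromosome 12 (94897055 to 95003770, minus strand, GRCh38). Its log2 values were 12.67 and 12.67 in rescue, 12.94 and 13.50 in mutant rescue, 12.47 and 12.42 in knockdown, and 12.51 and 12.80 in control. Both mutant rescue libraries lay above the other 6, with replicate 2 far above replicate 1. The gene rose 1.70-fold over knockdown, by 0.77 log2 (SE 0.17, adjusted p = 0.0330 in limma), and by 0.49 without mutant rescue replicate 2. The authors' deposited log2 change was larger, at 0.93. NDUFA8, an accessory subunit facing the intermembrane space, had 10.52 and 10.91 in mutant rescue against 10.09 and 10.19 in knockdown, and rose by 0.58 (adjusted p = 0.0385). NDUFV1, the core subunit that binds NADH and flavin, rose by 0.36 (adjusted p = 0.0490). It was not called in the authors' deposited table (adjusted p = 0.128).

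CYC1, which encodes cytochrome c1, had log2 values of 14.09 and 14.32 in mutant rescue against 13.72 and 13.69 in knockdown and rose by 0.50 (SE 0.12, adjusted p = 0.0396 in limma). SDHB had 11.80 and 12.03 against 11.43 and 11.46 and rose by 0.47 (adjusted p = 0.0423). COX7A2L, known for joining complexes III and IV into supercomplexes, had 11.77 and 12.00 against 11.46 and 11.43 and rose by 0.44 (adjusted p = 0.0421). COX7A2L was not called in the authors' deposited table (adjusted p = 0.0628). In each of these genes both mutant rescue libraries stood above both knockdown libraries. ATP5C1 (ATP5F1C), the central stalk subunit gamma, rose by 0.43 (adjusted p = 0.0404), and ATP5H (ATP5PD), a subunit of the peripheral stalk whose ETS core is shown above, by 0.52 (adjusted p = 0.0482).

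The medians of the complexes were 0.36 for the complex I core, 0.28 for complex II, 0.29 for complex III, 0.35 for complex IV and 0.26 for ATP synthase. At an unadjusted p under 0.05, 46 members were higher and 3 lower in mutant rescue, where 19.3% of all genes were higher and 14.1% lower. The lowest was COX7B, a small complex IV subunit, at 9.75 and 9.30 in mutant rescue against 9.99 and 10.25 in knockdown, a change of -0.60 (adjusted p = 0.130 in limma). COX7B was called lower in the authors' deposited table (adjusted p = 0.0297), in which 9 members were higher and 1 lower, where 4.37% of all genes were higher and 3.5% lower.

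Calls in mutant rescue against knockdown also depended on single libraries. None passed without knockdown replicate 1, knockdown replicate 2 or mutant rescue replicate 2, and 37 (46.2%) passed without mutant rescue replicate 1, of which 36 were higher. Over all genes 21.5% passed without mutant rescue replicate 1, 3.71% without mutant rescue replicate 2, and 0.721% and 0.606% without knockdown replicates 1 and 2. Without any 1 rescue or control library the count was lower than with all libraries, and so was the share of all genes called. The median change was 0.43 without mutant rescue replicate 1 and 0.22 without replicate 2. In a fit of only the libraries of these 2 groups the count was 0.

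**Figure D4:**
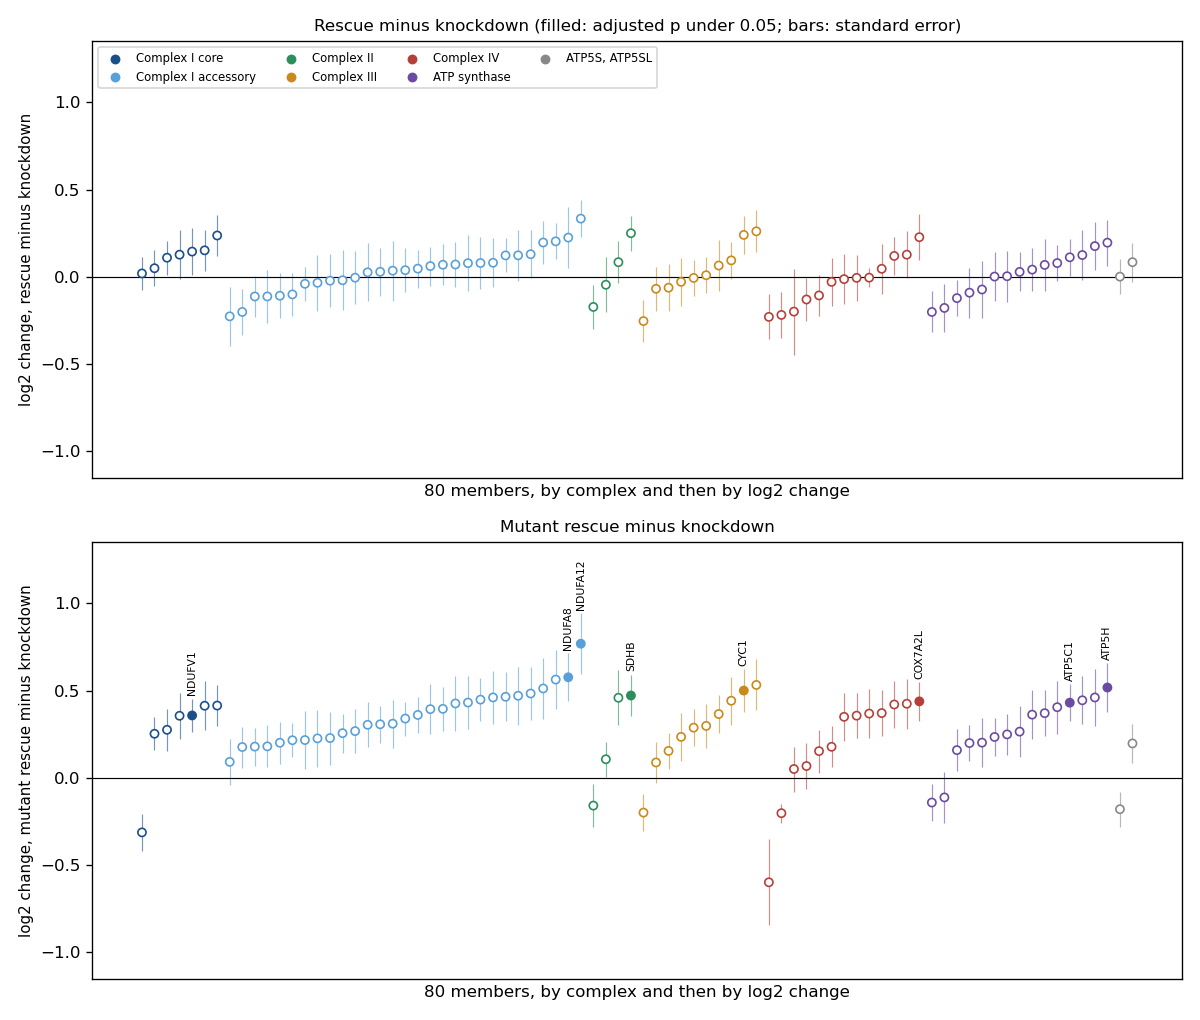
Log2 change of each of the 80 members in rescue minus knockdown (upper panel) and mutant rescue minus knockdown (lower panel), by complex and then by change, with the standard error as a bar and filled points for an adjusted p under 0.05 in limma. The upper panel has no filled point and lies around 0, while the lower panel has 8, all above 0. Both panels use the same knockdown libraries.

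The difference between the rescue arms was tested directly. In rescue against mutant rescue no member rose and 3 fell, where 4.61% of all genes fell and 10.5% passed in either direction. NDUFB5, an accessory subunit of the membrane arm, had log2 values of 11.34 and 11.23 in rescue against 11.61 and 11.72 in mutant rescue, a change of -0.38 (SE 0.10, adjusted p = 0.0431 in limma). ATP5G2 had 10.80 and 10.86 against 11.25 and 11.49, a change of -0.54 (adjusted p = 0.0440). ATP5L, a small membrane subunit of ATP synthase, had 11.62 and 11.46 against 11.90 and 12.09, a change of -0.45 (adjusted p = 0.0456). In all 3 genes the rescue libraries lay below the mutant rescue libraries.

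Changes between the arms were below 0 in 71 of 80 members, with a median of -0.29 against -0.02 over all genes and -0.10 over genes under 1000 bases. The median of the members was -0.25 with libraries centred on their medians and -0.23 with quantile normalization. Against this direction NDUFS1 had 9.87 and 9.87 in rescue and 9.63 and 9.39 in mutant rescue, a change of 0.36 that did not pass (adjusted p = 0.0603 in limma). The members called in mutant rescue against knockdown had changes here of -0.54 for NDUFA12 and -0.45 for NDUFA8, neither of which passed (adjusted p = 0.0767 and 0.0707). The count of calls was 34 (42.5%) without mutant rescue replicate 1, of which 33 were lower, where 22% of all genes passed, and 0 without mutant rescue replicate 2, either knockdown library or either rescue library. Without control replicate 1 or 2 the count was the same as with all libraries, while the share of all genes called was lower.

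Against control, the arms are also compared as labelled. In rescue against control no member rose and 2 fell, where 2.27% of all genes fell and 7.18% passed in either direction. NDUFS5 had log2 values of 10.94 and 10.69 in rescue, 10.96 and 10.89 in knockdown and 11.28 and 11.51 in control, and fell by 0.58 in rescue (SE 0.12, adjusted p = 0.0239 in limma). COX7C, a small complex IV subunit, had 10.81 and 10.61 in rescue and 11.18 and 11.43 in control, and fell by 0.59 (SE 0.13, adjusted p = 0.0291). Control was above rescue in each library of both genes. UQCRB, a complex III subunit at the ubiquinone site, came next at -0.47 and did not pass (adjusted p = 0.0506). The median over 80 members was -0.25 against -0.01 over all genes and -0.04 over genes under 1000 bases, and 72 changes were below 0. Without control replicate 2 that median was -0.11. The count of calls was lower without any 1 control, knockdown or rescue library and higher without either mutant rescue library. The share of all genes called moved the same way.

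Mutant rescue against control gave changes in both directions. Here 3 members rose and 5 fell, where 24.9% of all genes passed in either direction, 13.9% higher and 11.0% lower. The median over members was 0.02, and -0.04 and -0.08 with libraries centred on their medians or quantile normalized, against 0.0058 over all genes and 0.04 over genes under 1000 bases. NDUFS1, on chromosome 2 (206114817 to 206159603, minus strand, GRCh38), had log2 values of 9.87 and 9.87 in rescue, 9.63 and 9.39 in mutant rescue, 9.82 and 9.82 in knockdown, and 10.21 and 10.16 in control. Mutant rescue was lowest and control highest, with no overlap with the other groups. The gene fell 1.60-fold in mutant rescue, by 0.68 log2 (SE 0.10, adjusted p = 0.00295 in limma), and passed under every alternative fit and without each library in turn, with changes from -0.80 to -0.56. In the authors' deposited table its change was -0.84 (adjusted p = 0.00423).

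ATP5A1 had 13.31 and 13.12 in mutant rescue against 13.75 and 13.80 in control and fell by 0.56 (SE 0.10, adjusted p = 0.00680 in limma). It passed without each library in turn and missed the threshold when only mutant rescue and control libraries were fitted (adjusted p = 0.0509). SDHD, the small membrane anchor of complex II, lies on chromosome 11 (112086773 to 112120013, plus strand, GRCh38), after the NRF1 core shown above. Its log2 values were 11.92 and 12.24 in rescue, 12.40 and 12.76 in mutant rescue, 12.08 and 12.16 in knockdown, and 11.73 and 12.00 in control. Mutant rescue was the highest group and did not overlap another. SDHD rose 1.64-fold over control, by 0.72 log2 (SE 0.16, adjusted p = 0.0136), and the call was lost without control replicate 1 or mutant rescue replicate 2 (adjusted p = 0.0935 and 0.0547). SDHA, SDHB and SDHC had changes of -0.09, 0.37 and -0.25 in mutant rescue against control, none of which passed.

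NDUFB5 and NDUFA12 also rose in mutant rescue over control, by 0.39 and 0.56 log2 (adjusted p = 0.0215 and 0.0466 in limma). NDUFA5 fell by 0.34 (adjusted p = 0.0464), and COX7B by 0.78 (SE 0.25, adjusted p = 0.0485), at 9.75 and 9.30 against 10.06 and 10.55. COX7B had the widest replicates of all members in rescue and in control, with SDs of 0.45 and 0.34. ATP5SL, whose product is an assembly factor of complex I despite its older symbol, fell by 0.41 (adjusted p = 0.0199). The number of members called was higher without mutant rescue replicate 1 and lower without any other single library. The share of all genes called moved the same way.

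**Figure D5:**
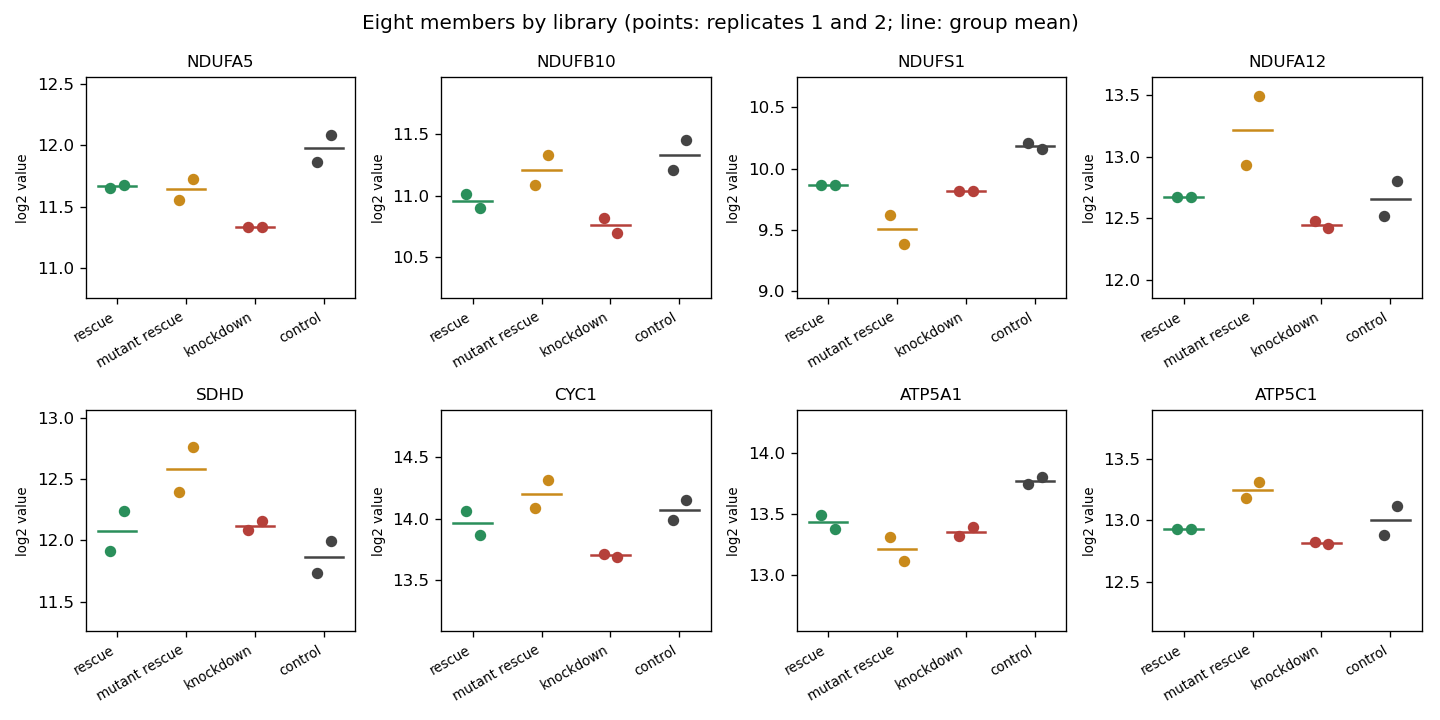
Log2 values of 8 members in each library (points, replicates 1 and 2) with the mean of each group as a line. NDUFA5, NDUFB10 and CYC1 are lowest in knockdown, NDUFS1 and ATP5A1 are lowest in mutant rescue and highest in control, and NDUFA12, SDHD and ATP5C1 are highest in mutant rescue.

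COX4I1 and ATP5B, each the highest deposited value of its complex on a scale that may not be per length, did not pass in any comparison. COX4I1, the ubiquitous form of subunit 4 of complex IV, had 12.69 and 12.52 in rescue, 12.83 and 13.11 in mutant rescue, 12.60 and 12.62 in knockdown, and 12.80 and 13.06 in control. Mutant rescue and control overlapped and lay above rescue and knockdown. ATP5B, the beta subunit of ATP synthase, had 15.04 and 14.81 in rescue, 14.99 and 14.62 in mutant rescue, 14.91 and 14.93 in knockdown, and 15.10 and 15.18 in control, so that control alone stood apart, and the lowest library was mutant rescue replicate 2. In the 6 comparisons, which share libraries, 25 of 80 members (31.2%) passed at least once, as did 36.3% of all genes tested. The pathway lists below, of genes around the chain, were read in the same fits.

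Mitochondrial DNA encodes the other 13 subunits. In knockdown against control none passed in limma (1 higher and 0 lower at an unadjusted p under 0.05, where 13.0% and 16.0% of all genes were), and 12 of 13 changes were above 0, with a median of 0.20, against -0.24 for the nuclear members. In rescue against knockdown none passed (0 higher and 6 lower at an unadjusted p under 0.05, where 11.5% and 8.16% of all genes were), and all 13 changes were below 0, with a median of -0.32. MT-CO1, the catalytic subunit of complex IV, had log2 values of 13.22 and 13.29 in rescue, 14.12 and 14.87 in mutant rescue, 14.07 and 14.12 in knockdown, and 13.18 and 13.51 in control. Rescue and control lay together below mutant rescue and knockdown. MT-CO1 fell by 1.24 log2 in rescue against mutant rescue (SE 0.22, adjusted p = 0.0122), where 5 of 13 fell against 4.61% of all genes, and rose by 1.15 in mutant rescue over control (adjusted p = 0.00713), where 5 of 13 rose against 13.9% of all genes. The medians were -0.72 and 0.58 in these comparisons, and -0.60 and 0.43 with quantile normalization. The libraries were made from polyadenylated RNA, and replicate 2 lay above replicate 1 by a median of 0.51 in mutant rescue and 0.38 in control for these genes. The part of these shifts in the result was not tested.

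Of 50 assembly factors, 3 fell and none rose in knockdown against control, where 7.44% of all genes fell and 5.35% rose. The 3 are the complex I factor NDUFAF1 by 0.47 (adjusted p = 0.0237 in limma), and the complex IV factors COA4 by 0.54 and COX17, a copper chaperone, by 0.51 (adjusted p = 0.0264 and 0.0443). None passed in rescue against knockdown in limma. At an unadjusted p under 0.05, 5 were higher and 1 lower there, where 11.5% and 8.16% of all genes were. In mutant rescue against knockdown 4 rose and 1 fell, where 5.58% of all genes rose and 5.73% fell. The one that fell was TTC19, a factor of complex III, by 1.00 (SE 0.11, adjusted p = 0.00271), at a mean of 9.14 in mutant rescue against 10.15 in knockdown. TTC19 was 1.10 higher in rescue than in mutant rescue (adjusted p = 0.00105), where 3 of the list rose and 2 fell against 5.9% and 4.61% of all genes, and 0.81 lower in mutant rescue than in control (adjusted p = 0.00185), where 3 rose and 3 fell against 13.9% and 11.0% of all genes. SDHAF2, which attaches the flavin to SDHA, rose by 0.46 in mutant rescue over knockdown (adjusted p = 0.0327). COA1, a complex IV factor, rose by 0.61 in rescue over mutant rescue (adjusted p = 0.0225) and fell by 0.66 in mutant rescue against control (adjusted p = 0.00773). SDHAF1 was the single factor that changed in rescue against control, with a fall of 0.61 (adjusted p = 0.0244). In that comparison 4.91% of all genes rose and 2.27% fell.

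Of 17 genes of mobile carriers and coenzyme Q synthesis, COQ3 alone passed in knockdown against control, with a fall of 0.41 (adjusted p = 0.0481 in limma). In that comparison 5.35% of all genes rose and 7.44% fell. In mutant rescue over knockdown 4 rose, where 5.58% of all genes did, among them COQ3 by 0.54, the electron transfer flavoprotein gene ETFA by 0.50 and COQ5 by 0.45. None passed in limma in rescue against knockdown or in rescue against mutant rescue. At an unadjusted p under 0.05, 1 was higher and 0 lower in rescue against knockdown, where 11.5% and 8.16% of all genes were. In rescue against mutant rescue 1 was higher and 3 lower at that threshold, where 14.9% and 16.3% of all genes were. COQ10B rose by 0.38 in rescue over control (adjusted p = 0.0409), where 4.91% of all genes rose. In mutant rescue over control 3 of the list rose, where 13.9% of all genes did, COQ10B by 0.39, COQ5 by 0.45 and ETFB by 0.40.

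Of 17 regulators of mitochondrial biogenesis, 16 were tested. In knockdown against control the nuclear receptor gene ESRRA rose by 0.68 (SE 0.15, adjusted p = 0.0251 in limma), while TFAM, the packaging factor of mitochondrial DNA, fell by 0.41 and SLIRP, a stabilizer of mitochondrial messenger RNA, by 0.53 (adjusted p = 0.0280 and 0.0382). In that comparison 5.35% of all genes rose and 7.44% fell. None of the list passed in limma in rescue against knockdown or in rescue against mutant rescue. At an unadjusted p under 0.05, 1 was higher and 0 lower in rescue against knockdown, where 11.5% and 8.16% of all genes were. In rescue against mutant rescue 1 was higher and 4 lower at that threshold, where 14.9% and 16.3% of all genes were. MYC and TFB1M rose by 0.65 and 0.43 in mutant rescue over knockdown (adjusted p = 0.0290 and 0.0413), where 5.58% of all genes rose. In mutant rescue against control 4 rose, ESRRA (0.55) and PPARGC1B (0.40) among them, and TFAM fell by 0.45 (adjusted p = 0.0121), where 13.9% of all genes rose and 11.0% fell.

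The 87 ribosomal protein genes tested lie outside the pathway. In knockdown against control 10 fell and none rose, where 7.44% of all genes fell and 5.35% rose. The median was -0.31, and -0.19 with quantile normalization. In rescue against knockdown 2 fell, where 1.02% of all genes did, with a median of -0.21, and -0.37 with quantile normalization. In mutant rescue against knockdown 2 rose, where 5.58% of all genes did, with a median of 0.25, and 0.03 with quantile normalization. In rescue against mutant rescue 21 fell, with a median of -0.45, and in rescue against control 29 fell, with a median of -0.52, where 4.61% and 2.27% of all genes fell. In mutant rescue against control 1 rose and 5 fell, where 13.9% of all genes rose and 11.0% fell. The median was -0.08, and -0.17 with quantile normalization. The medians of the ribosomal protein genes and of the respiratory chain members lay on the same side of 0 in knockdown against control, mutant rescue against knockdown, rescue against mutant rescue and rescue against control, under each scaling. In rescue against knockdown and in mutant rescue against control the members' medians of 0.03 and 0.02 were above 0, but with quantile normalization both were -0.08 and lay on the side of the ribosomal protein genes, as did the -0.04 of mutant rescue against control with libraries centred on their medians. Whether members and ribosomal protein genes differ was not tested.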

How the data were processed

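RNA of 8 MOLM13 libraries, 2 each of rescue, mutant rescue, knockdown and control, was compared. The deposited table, a HOMER differential expression table per the file headers, gives log2 values that the authors normalized across all libraries, with low values drawn together, and for each pair of groups a log2 fold change, a p-value and an adjusted p-value. Per the submitters' processing notes, the tools were kallisto, HOMER and Trim Galore and the build GRCh38, without roles or versions. Counts were not used, depth is unknown, and no counting interval can be given. The sources used here do not say whether values are per length.

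Genes at 1 ppm or more of the summed linear values in 2 or more libraries were tested on the deposited log2 values with limma 3.58.1 (R 4.3.3), as 4 group means with 4 residual degrees of freedom, a mean trend in the variance and Benjamini-Hochberg adjustment over 13030 genes, called under 0.05. The fit was tested on simulated data. The members and lists were chosen with earlier results of these data known. Named members were those called with the smallest adjusted p in a comparison (up to 10, or the 3 of smallest p where under 3 were called), those of highest and lowest mean in a complex, the SDH and subunit c genes, NDUFA4, COX7A2L and isoform pairs, those beside the filter, and up to 3 called genes of each list and comparison. Positions and transcript lengths came from GENCODE v29 (GRCh38), older symbols and promoter windows from RefSeq (GRCh38.p14). Alternatives were the filter, a fit of only the groups compared, no trend, other scalings, a replicate block, each library left out and the authors' deposited changes. Pseudogene rows, which may take reads of members, held 0.167% to 0.229% of the members' linear total. Values of 1 member, which is part of the counts and medians, are not reported here.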

Additional observations from a re-analysis of the deposited data

How the results depend on the processing

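No called member changed direction under an alternative, while the medians of rescue against knockdown and of mutant rescue against control changed sign with the scaling, as given above. Counts of members called are given against 9 in knockdown against control, 0 in rescue against knockdown, 8 in mutant rescue against knockdown, 3 in rescue against mutant rescue, 2 in rescue against control and 8 in mutant rescue against control. With no filter on low values, which tests more genes, they were 2 in knockdown against control, 0 in mutant rescue against knockdown, 0 in rescue against mutant rescue, 0 in rescue against control and 5 in mutant rescue against control. Of all genes 4.38%, 2.35%, 3.18%, 2.5% and 9.46% passed in these comparisons. In fits of only the groups compared they were 20, 1, 0, 0, 1 and 3 in the order above. Of all genes 20.1%, 9.56%, 2.14%, 1.47%, 5.53% and 13.8% passed in these fits. With no mean trend they were 4 in mutant rescue against knockdown, 0 in rescue against mutant rescue and 5 in mutant rescue against control. Here 8.53%, 9.95% and 24.4% of all genes passed. With libraries centred on their medians they were 3 in mutant rescue against knockdown, 0 in rescue against mutant rescue and 4 in rescue against control. The shares of all genes were 10.1%, 9.98% and 6.65%. With quantile normalization they were 3 in knockdown against control, 0 in mutant rescue against knockdown, where the median was 0.11, and 7 in rescue against control. The shares of all genes were 12.2%, 5.5% and 8.08%. A stricter filter gave 5 in rescue against mutant rescue, where 11.9% of all genes passed. The authors' deposited changes gave 31 in knockdown against control, 1 in rescue against knockdown, 6 in rescue against control and 5 in mutant rescue against control. The 31 were lower, where 13.4% of all genes were, and the 1 was higher, where 7.04% were. Shares of all genes for the last 2 comparisons were not computed. The cause of these differences was not tested.

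Without 1 library the counts ranged from 0 to 15 in knockdown against control, 0 to 0 in rescue against knockdown, 0 to 37 in mutant rescue against knockdown, 0 to 34 in rescue against mutant rescue, 0 to 11 in rescue against control and 3 to 21 in mutant rescue against control. The medians ranged from -0.37 to -0.12, -0.0002 to 0.0717, 0.22 to 0.43, -0.39 to -0.17, -0.37 to -0.11 and -0.10 to 0.17 in the same order. The share of all genes called also varied between these fits. At the highest counts in the comparisons against control, the share of members called was near that of all genes. At the highest counts in mutant rescue against knockdown and rescue against mutant rescue it was above that of all genes, as given above. A wide range of counts is therefore not by itself specific to the members. Of the alternatives for single named members, 316 kept the side of the threshold, 219 lost it and 9 gained it. The labels do not say whether replicate numbers pair the libraries across groups. Correlations of the deviations between groups ran from -0.02 to 0.41, and these cannot settle it. With the replicate number as a block the counts were 16 in mutant rescue against knockdown, 15 in rescue against mutant rescue and 4 in rescue against control. Of all genes 13.9%, 13.5% and 7.75% passed there. In the other comparisons the counts were within 1.5 times those above.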

Other observations

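Several subunits and regulators of the chain have symbols that the naming pattern does not take, and their values were read after the other results were known. NDUFAB1, the acyl carrier protein that is also a subunit of complex I, had log2 values of 11.53 and 11.41 in rescue, 11.54 and 11.77 in mutant rescue, 11.30 and 11.31 in knockdown, and 11.58 and 11.83 in control. Knockdown lay below every other group, and the change of -0.40 against control did not pass (adjusted p = 0.0595 in limma). ATPIF1, the inhibitor of ATP synthase, had a change of -0.32 in knockdown against control, USMG5, a small subunit of ATP synthase, -0.39, C14orf2, another, -0.13, and cytochrome c (CYCS) -0.28, and none of these passed. NDUFA4L2, a relative of NDUFA4 known as a hypoxia-induced gene, fell by 0.61 in knockdown (adjusted p = 0.0230) and by 0.50 in mutant rescue (adjusted p = 0.0281), both against control.

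PTPMT1, a mitochondrial phosphatase of cardiolipin synthesis, was also named after its values were seen. It had log2 values of 7.48 and 7.25 in rescue, 7.44 and 7.42 in mutant rescue, 7.30 and 7.34 in knockdown, and 8.91 and 9.09 in control. All 6 libraries of the other groups lay together, below both control libraries. The change in knockdown against control was -1.68 (SE 0.13, adjusted p = 0.00048 in limma), and in rescue against knockdown 0.04 (adjusted p = 0.898).

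Of the 91 pseudogene rows that the pattern matched, 50 were at 0 in all libraries and 3 passed the filter, namely UQCRFS1P1, ATP5F1P1 and COX5BP6, with mean log2 values of 8.79, 6.24 and 4.96.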
